A study of Mus musculus with 3 samples.

Results

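The signalling lymphocytic activation molecule (SLAM) family receptors, their relative CD2 and the adapter SAP were followed through total RNA-seq of mouse T cells. The 8 members were set by name: Slamf1, Slamf6, Slamf7, Ly9, Cd48, Cd84, Cd2 and Sh2d1a, the gene of SAP. All 8 were found among the 50600 annotated genes of the count tables by matching gene identifiers to GENCODE symbols. The cells were primary cells of strain C57BL/6NJ labelled T-helper 1, in 1 group of 3 libraries given as biological replicates 1, 2 and 3. Each replicate was its own biosample, all with the same donor identifier, and neither sex nor age was given. No agent or allele was named on the labels, and the table headers carried a Th1 and Th2 time course and a time of 0 hours. With 1 group, members were compared with each other within each library and between the 3 libraries, and no condition was tested.

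SLAM family receptors are cell surface proteins with immunoglobulin domains, and most of them bind the same receptor on a neighbouring cell. CD48 differs from them as a lipid-anchored protein without a tail that is the ligand of CD2 and CD244 in the mouse. The receptors' tails carry tyrosine motifs that bind SAP, which recruits the kinase FYN. In T cells this route is known for stable contacts with B cells and for the development of natural killer T cells, and loss of the SAP gene causes X-linked lymphoproliferative disease in humans.

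The 3 libraries differed in depth and in make-up, which bears on every value that follows. They held 3647366, 4305077 and 2510319 counted fragments in replicates 1, 2 and 3. Counting used strand setting 1, per the file headers, and 63.1%, 53.8% and 76.5% of the fragments lay in the 8189 genes whose exons overlap exons of the other strand. Replicate 3 stood apart, with the fewest fragments and the largest share in such genes. Which strand the fragments came from was not tested, and it bears on the level of every gene, those at or near 0 counts included. Cd2, Cd84 and Slamf1 had no annotated gene of the other strand within 5 kb, Cd48, Ly9 and Slamf6 had one within 5 kb without shared exon bases, and Slamf7 and Sh2d1a shared exon bases with a gene of the other strand. The 8 CD4 T cell markers and the 6 naive T cell markers all reached 1 TPM (a level per length) in every library, against 3 of 8 Th1 markers. The 3 were Il18r1, Stat4 and Il12rb2, at mean levels of 28.4, 14.8 and 14.3 TPM, and the exons of Il12rb2 overlap exons of the other strand. Tbx21 and Ifng, which define Th1 cells, had 4 counts each over the 3 libraries and Cxcr3 had 0. These defining markers of the label were thus near absent from the counts. So were Ccl5 and Gzmb of the same list, with 2 counts each over the 3 libraries, while Il18r1, Stat4 and Il12rb2 were not. In bulk RNA, fewer cells of a type and less RNA per cell cannot be told apart.

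Most markers of other cell types that carry SLAM receptors missed 1 TPM, but a few stood as high as the members. The natural killer cell markers Klrb1c and Klra8 had 0 counts. Of all natural killer cell markers 1 of 6 reached 1 TPM in every library, namely Klrk1 at 2.59, 1.78 and 1.58 TPM. Of the B cell markers 2 of 8 did, with Ms4a1, Pax5, Blnk and Igkc at 0 counts, and the summed B marker level was 271, 401 and 123 TPM. The 2 were Ighm, an immunoglobulin heavy chain, at 237, 352 and 73.4 TPM, and Cd79a, a chain of the B cell receptor, at 33.2, 48.3 and 49.6 TPM. Of the myeloid markers 2 of 8 did, with Adgre1, Cd14 and S100a8 at 0 counts, and their summed level was 88.8, 73.6 and 111 TPM. Most of it was Csf1r, a growth factor receptor of macrophages whose exons overlap exons of the other strand, at 80.9, 66.7 and 95.8 TPM. Ighm was thus close to Cd2, the highest member, in replicates 1 and 2, and Csf1r was above most members. At 1 TPM in every library there were also 1 of 2 CD8 T cell markers and 1 of 4 innate-like T cell markers. These were Cd8b1 at 9.67, 18.2 and 7.67 TPM and Trdc at 3.02, 4.36 and 2.08 TPM, while Cd8a had 1 count. Cd8b1 was above Slamf1 and Sh2d1a in each library. Of the dendritic markers 1 of 7 reached it, Cd74 at 3.77, 2.53 and 1.42 TPM. Of the plasma cell markers 1 of 3 did, Xbp1 at 8.34, 17.8 and 1.44 TPM. Of the erythroid and platelet markers 0 of 5 did, and Siglech, Jchain and Sdc1 had 0 counts. The part of cells of these other types in the members' levels was not tested.

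Of the 8 members, 7 were detected at 1 TPM or more in all 3 libraries, while 41.6% of the 21764 protein-coding genes were. The members spanned a wide range, with Cd2 highest, Cd48, Ly9, Cd84 and Slamf6 in the middle, Sh2d1a and Slamf1 low, and Slamf7 near the detection limit. TPM here were computed from the counts and the summed exon length in the tables, so they are levels per length, scaled to the same total in each library. The median of the members' mean levels was 31.9 TPM, and that of all protein-coding genes was 0.603 TPM. Together the 8 members took 2639, 3758 and 934 counts in replicates 1, 2 and 3.

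**Figure D1:**
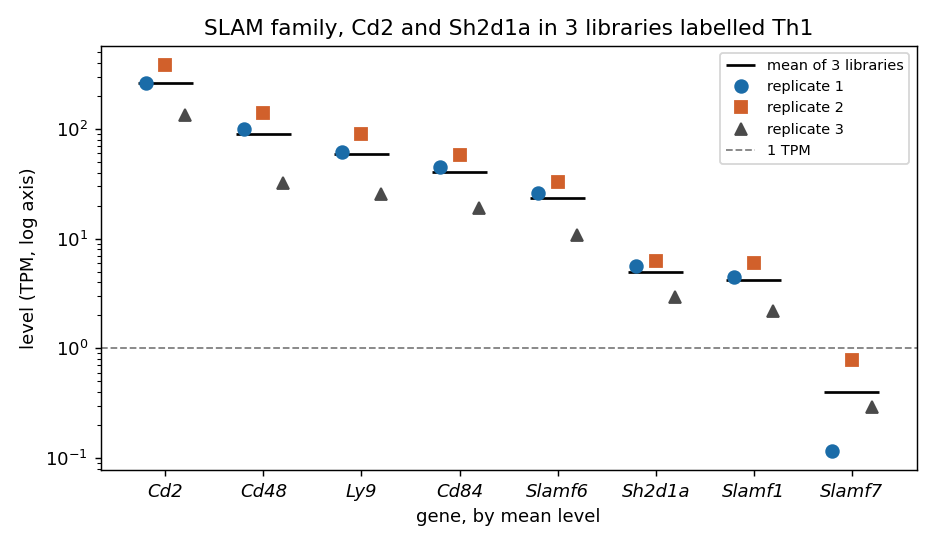
Levels of the 8 members in TPM on a log axis, with 1 point per replicate, a black line at the mean of the 3 libraries and a dashed line at 1 TPM. Cd2 was highest in each library at 262, 380 and 135 TPM, and Slamf7 lowest at 0.116, 0.781 and 0.292 TPM.

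CD48 is the ligand among the members, held in the membrane by a lipid anchor. Cd48 (ENSMUSG00000015355.13, chr1:171682009-171705258, plus strand, 4 exon blocks) had 98.7, 138 and 32.1 TPM in replicates 1, 2 and 3, from 221, 322 and 57 counts. Replicate 2 was highest and replicate 3 lowest, as in 7 of the 8 members and in 76.3% of the protein-coding genes at 1 TPM in all libraries. Replicate 3 had 27.1% of the mean of the other libraries. Levels in that library were low in general. Over 3644 genes past a count filter that have an other-strand gene within 5 kb, as Cd48 does, the median log2 TPM ratio of replicate 3 over replicate 2 was -1.44. The mean level of Cd48 was 89.7 ± 53.6 TPM (SD, n = 3), and 118 TPM without replicate 3. Among protein-coding genes it ranked 647, 578 and 1486 by level.

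CD2 is the adhesion and costimulatory receptor of T cells that binds CD48 in the mouse. Cd2 (ENSMUSG00000027863.8, chr3:101275899-101287939, minus strand, 4 exon blocks) had 262, 380 and 135 TPM, from 860, 1297 and 351 counts. It was the highest member in each of the 3 libraries, and replicate 3 was again lowest. Its mean was 259 ± 123 TPM (SD, n = 3), and 321 TPM without replicate 3. It ranked 219, 161 and 414 among protein-coding genes.

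Cd2 and Cd48 form a receptor and ligand pair, and Cd2 exceeded Cd48 in every library. The log2 ratio of their TPM, each with 0.1 added, was 1.41, 1.46 and 2.07, with a mean of 1.65 ± 0.37 (SD, n = 3). The ratio in replicate 3 lay above the other values, and without that library the mean was 1.43. Over all fragments Cd2 had 2.85 times the counts per base of Cd48, with an exact Clopper-Pearson 95% interval of 2.61 to 3.13. The exact two-sided sign-flip test gave p = 0.25, the smallest value that 3 libraries allow. The same p was found for each of the 12 gene pairs set for this comparison, so the test could not pass a threshold of 0.05 for any of them. The first gene was the higher in 8 of these pairs and the lower in 4, each time in all 3 libraries.

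On chromosome 1, 6 members lie in a cluster of 365 kb (chr1:171588624-171953170, mm10), in the order Ly9, Slamf7, Cd48, Slamf1, Cd84 and Slamf6. Slamf7 and Slamf1, the lowest of the 6 in level, each lie between higher members. Cd244a, the gene of the other CD48 receptor, overlaps Ly9 on the other strand and had 1 count in the 3 libraries together. Gm37787, which overlaps Slamf7 on the other strand, had 3, 5 and 17 counts in replicates 1, 2 and 3. Mir7683 within Slamf7 had 0 counts, Gm37010 within Cd48 had 5, 2 and 0, and Gm37065 opposite Slamf6 had 19, 31 and 19. Of the 13 annotated features in the interval that are not members, 6 had 0 counts.

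**Figure D2:**
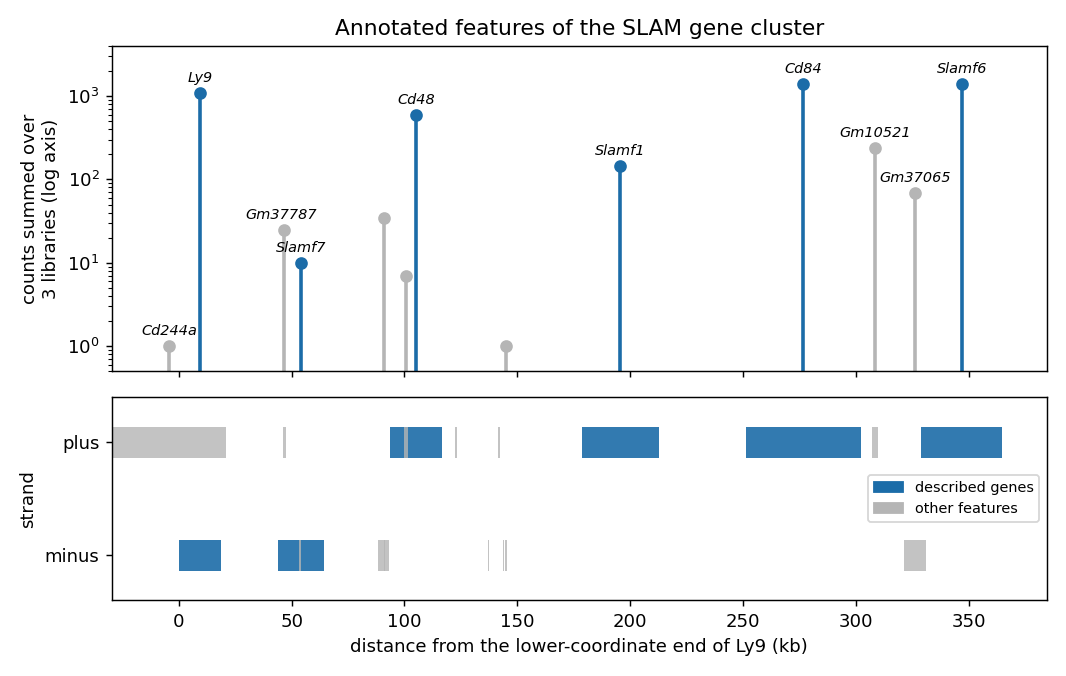
Counts summed over the 3 libraries on a log axis (top) for annotated features of the SLAM gene cluster with at least 1 count, against distance from the lower-coordinate end of Ly9 in kb, and the features of each strand as boxes (bottom). Blue marks the members and grey the other features. Cd84 and Slamf6 stand highest with 1414 and 1409 counts, and Slamf7 lowest of the members with 10.

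Promoter sequences of 5 of the 8 members were found in the RefSeq table (GRCm38.p6), each with 250 bases before and 50 after the RefSeq gene start. Of these, 3 are shown because they span the cluster's levels by summed exon length: Cd48 high, Slamf6 intermediate and Slamf7 lowest. They are written 5′ to 3′ on the gene's strand, and capitals mark a core of the ETS factor motif (GGAA, or TTCC on the other strand) and one of the RUNX motif (TGTGGT, reading ACCACA on the other strand). The RefSeq start of Slamf7 lies inside the gene body of the count tables, and the Slamf6 window lies wholly before the Slamf6 start of those tables. The Cd48 window is chr1:171681742-171682041 (plus strand), that of Slamf6 is chr1:171917212-171917511 (plus strand), and that of Slamf7 is chr1:171648950-171649249 (minus strand).
Cd48: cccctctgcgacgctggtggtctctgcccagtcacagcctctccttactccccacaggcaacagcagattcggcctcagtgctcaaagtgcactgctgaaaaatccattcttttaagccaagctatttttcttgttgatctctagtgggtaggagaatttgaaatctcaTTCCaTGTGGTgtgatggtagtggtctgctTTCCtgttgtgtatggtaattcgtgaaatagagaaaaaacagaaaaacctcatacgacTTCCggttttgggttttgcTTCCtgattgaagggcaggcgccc
Slamf6: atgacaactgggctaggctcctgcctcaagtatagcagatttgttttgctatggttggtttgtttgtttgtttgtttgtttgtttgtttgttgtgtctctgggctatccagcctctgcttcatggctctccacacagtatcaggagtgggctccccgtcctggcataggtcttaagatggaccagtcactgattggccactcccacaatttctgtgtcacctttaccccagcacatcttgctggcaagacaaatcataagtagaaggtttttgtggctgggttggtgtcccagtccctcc
Slamf7: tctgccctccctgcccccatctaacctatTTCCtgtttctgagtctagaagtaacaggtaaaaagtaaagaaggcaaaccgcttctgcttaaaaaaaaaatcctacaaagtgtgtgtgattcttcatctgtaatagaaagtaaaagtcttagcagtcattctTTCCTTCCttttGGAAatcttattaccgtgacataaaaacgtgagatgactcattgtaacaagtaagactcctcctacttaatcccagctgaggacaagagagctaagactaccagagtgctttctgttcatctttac

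The Slamf6 window held no GGAA on either strand, while the Cd48 and Slamf7 windows held 4 each. GGAA is common, since 96.0% of 32851 RefSeq promoter windows of this length held at least 1, with a median of 3. TGTGGT was found 1 time in the Cd48 window and in neither of the other printed windows, and 16.8% of all windows held it. CTTTGA, a core of TCF and LEF motifs, was found 1 time in the Cd48 window and in no other member's, against 16.0% of all windows. AGATAA, bound by GATA3 and its relatives, was found in none of the 5 windows, against 11.2% of all windows. The windows of Cd84 and Slamf1 held 7 and 6 GGAA matches, and Cd84 also held 1 TGTGGT. Both strands were searched for each motif, and a match is a description of these letters only.

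Ly9, also called CD229, is a SLAM receptor that binds itself on a neighbouring cell. Ly9 (ENSMUSG00000004707.14, chr1:171588624-171607410, minus strand, 11 exon blocks) had 61.7, 90.4 and 25.5 TPM in replicates 1, 2 and 3, from 384, 586 and 126 counts. Replicate 3 was lowest, at 33.5% of the mean of the others. Ly9 is in the same class of genes as Cd48, with a median log2 TPM ratio of replicate 3 over replicate 2 of -1.44. The mean was 59.2 ± 32.5 TPM (SD, n = 3), and 76.1 TPM without replicate 3. Cd48 exceeded Ly9 by a log2 ratio of 0.54 ± 0.18 (SD, n = 3), which had the same sign in every library.

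CD84 binds itself and is known for prolonged contact of T cells with B cells. Cd84 (ENSMUSG00000038147.13, chr1:171839697-171890718, plus strand, 9 exon blocks) had 45.1, 57.2 and 19.1 TPM, from 532, 703 and 179 counts. Replicate 2 was highest, and replicate 3 was lower than both others. The mean was 40.5 ± 19.5 TPM (SD, n = 3), and 51.1 TPM without replicate 3.

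SLAMF6, also called Ly108 in the mouse, binds itself and in exhausted CD8 T cells is used as a marker of progenitor cells. Slamf6 (ENSMUSG00000015314.10, chr1:171917515-171953170, plus strand, 11 exon blocks) had 26.0, 33.1 and 10.8 TPM, from 531, 703 and 175 counts. As in Cd84, replicate 2 was highest and replicate 3 lowest. The mean was 23.3 ± 11.4 TPM (SD, n = 3), and 29.6 TPM without replicate 3.

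Cd84 and Slamf6 had nearly equal counts in every library, and their per-length ratio hardly moved. The log2 ratio of Slamf6 over Cd84 was -0.80 ± 0.016 (SD, n = 3). Counting error alone gave a standard error of 0.0885, 0.0770 and 0.153 for this log2 ratio in replicates 1, 2 and 3, so the observed spread was smaller than counting error. The summed exon length is 10832 bases for Slamf6 and 6272 bases for Cd84, so nearly equal counts gave unequal levels per length.

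The length used decided the order of the middle members. Levels were computed again with the length of 1 principal transcript per gene (APPRIS principal, GENCODE M21), an alternative chosen after the data were seen. That length is 2485 bases for Slamf6, 3291 for Cd84, 2488 for Ly9 and 1186 for Cd48. On this scale Slamf6 averaged 83.2 ± 38.4 TPM, Cd48 73.3 ± 42.0 TPM, Ly9 64.3 ± 33.4 TPM and Cd84 63.1 ± 28.6 TPM (SD, n = 3 each). Slamf6 was thus second of the 8 members and above Cd84 by a log2 ratio of 0.39 ± 0.018, where the summed length put it below Cd84. Slamf6 over Ly9 likewise had a log2 ratio of 0.40 ± 0.12 on this scale and -1.31 ± 0.12 with the summed length. Cd48 and Ly9 did not differ beyond their spread on this scale, with log2 ratios of 0.27, 0.20 and -0.08 in the 3 libraries, nor did Ly9 and Cd84, with a mean of -0.01 ± 0.13. Cd2 remained highest at 320 ± 141 TPM, and Slamf7 lowest.

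**Figure D3:**
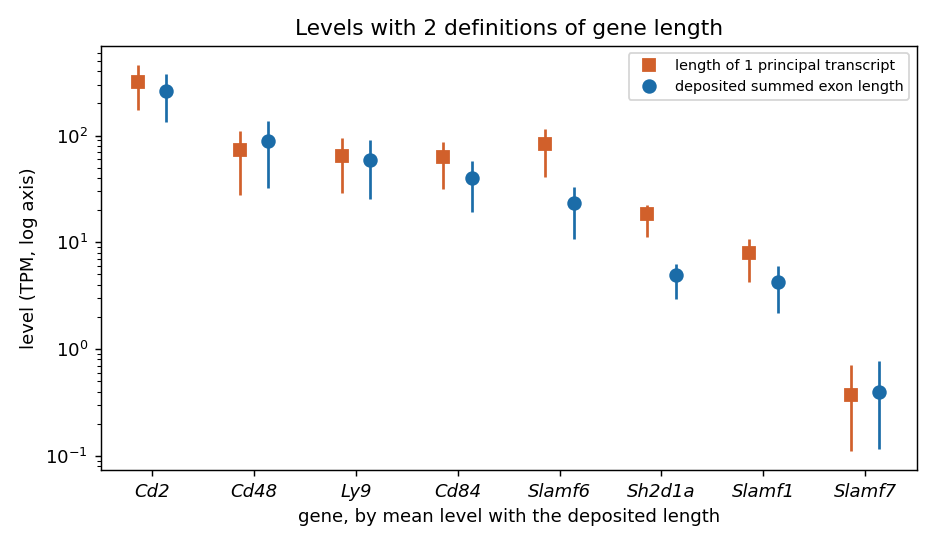
Mean TPM of each member on a log axis, with lines from the lowest to the highest library, computed with the length of 1 principal transcript (squares) and with the summed exon length (circles). Slamf6 stands at 83.2 TPM with the principal transcript and at 23.3 TPM with the summed length, while Cd48 stands at 73.3 and 89.7 TPM.

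SLAMF1, also called CD150, binds itself and in humans is a receptor for measles virus. Slamf1 (ENSMUSG00000015316.11, chr1:171767127-171801184, plus strand, 7 exon blocks) had 4.49, 5.97 and 2.17 TPM, from 52, 72 and 20 counts. The 3 libraries kept the order of the other receptors at a much lower level. The mean was 4.21 ± 1.91 TPM (SD, n = 3), and 5.23 TPM without replicate 3.

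The higher receptors exceeded Slamf1 in every library. The log2 ratio over Slamf1 was 3.71 ± 0.21 for Ly9, 3.21 ± 0.11 for Cd84 and 2.41 ± 0.13 for Slamf6 (SD, n = 3 each). In counts per base over all libraries these were ratios of 14.2 (95% interval 11.9 to 17.0), 9.64 (8.11 to 11.5) and 5.56 (4.68 to 6.65). Each mean log2 ratio was many times its SD, and no interval included equality. These sizes and their order hold for the summed exon length. With the principal transcript lengths the log2 ratios were 2.95 ± 0.20 for Ly9, 2.96 ± 0.11 for Cd84 and 3.35 ± 0.12 for Slamf6 (SD, n = 3 each). All were above 0 on both scales, but Slamf6 then had the largest.

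SLAMF7, also called CRACC, is known from natural killer cells and plasma cells, and is the target of the myeloma antibody elotuzumab in humans. Slamf7 (ENSMUSG00000038179.13, chr1:171632403-171653035, minus strand, 8 exon blocks) had 1, 7 and 2 counts, equal to 0.116, 0.781 and 0.292 TPM. A floor of 3 counts corresponds to 0.348, 0.335 and 0.439 TPM, so replicates 1 and 3 lay under that floor. Slamf6 had 59.5 times the counts per base of Slamf7, with a 95% interval of 32.3 to 124. The counts of Slamf7 cannot be assigned to it with certainty, because 423 of its exon bases are shared with Gm37787 on the other strand.

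Levels of neighbours in the order by summed exon length were compared within each library. All 7 neighbouring pairs kept 1 sign in the 3 libraries with a mean of at least 1 SD. The order itself came from the mean levels in these libraries, which favours a positive mean ratio in advance. Cd2 over Cd48, Slamf6 over Sh2d1a and Slamf1 over Slamf7 were the widest steps, with log2 ratios of 1.65 ± 0.37, 2.14 ± 0.26 and 3.24 ± 1.02 (SD, n = 3 each). Sh2d1a and Slamf1 were the closest, at 0.27 ± 0.17, and their ratio of counts per base was 1.16 with a 95% interval of 0.921 to 1.47 that included equality. This closeness depended on the length used. With the principal transcript lengths the log2 ratio of Sh2d1a over Slamf1 was 1.24 ± 0.17 (SD, n = 3). On that scale Cd48 over Ly9 and Ly9 over Cd84 did not keep 1 sign, and Cd84 over Slamf6 was reversed.

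SAP is the adapter that links the receptor tails to FYN. Sh2d1a (ENSMUSG00000005696.11, chrX:42502453-42529330, plus strand, 6 exon blocks) had 5.60, 6.30 and 2.92 TPM, from 58, 68 and 24 counts. The values of replicates 1 and 2 were close, and replicate 3 was lower. The mean was 4.94 ± 1.79 TPM (SD, n = 3), and 5.95 TPM without replicate 3. Tenm1 on the other strand shares 1465 of the exon bases of Sh2d1a and had 19, 19 and 22 counts, so reads of the 2 genes may be mixed. Tenm1 did not show the drop in counts that Sh2d1a had in replicate 3.

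Sh2d1a was lower than the receptor Slamf6, with a log2 ratio of -2.14 ± 0.26 (SD, n = 3) and 0.209 times its counts per base. With the principal transcript lengths Sh2d1a stood at 18.3 ± 6.09 TPM and Slamf6 at 83.2 ± 38.4 TPM, so the direction was the same on both scales. Its homologues Sh2d1b1 and Sh2d1b2, which encode the adapters EAT-2A and EAT-2B of natural killer cells, both had 0 counts. The level of 3 counts at Sh2d1b1 is 0.626, 0.602 and 0.789 TPM. With a floor of 3 counts in each library and the 3 libraries pooled, Sh2d1a was at least 7.70-fold higher per base than Sh2d1b1.

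Of SLAM receptors outside the members, few or no fragments were counted. None of the 3 (Cd244a, which lies in the cluster, and Slamf8 and Slamf9, which lie outside it) reached 1 TPM in all libraries, with 1, 0 and 2 counts over the 3 libraries. For Slamf8, 3 counts would be 0.518, 0.497 and 0.652 TPM. Cd48 had 600 counts against 1 count of Cd244a, a ratio per base of 2461 with a 95% interval of 440 to 97347, whereas its receptor Cd2 had 2508 counts.

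The enzymes and adapters that bind SLAM and CD2 tails were largely detected, with 17 of 18 at 1 TPM or more in every library. Lck, the kinase of the T cell receptor complex, was highest at 331 ± 169 TPM, and Ptpn6, the phosphatase SHP-1, was next at 150 ± 49.5 TPM (SD, n = 3 each). Fyn, the kinase that SAP recruits, had 77.9, 123 and 42.3 TPM in replicates 1, 2 and 3, and was lower than Lck in each library, with a log2 ratio of -2.01 ± 0.12. The mean of Fyn was 81.2 ± 40.6 TPM (SD, n = 3), beside the 4.94 TPM of its adapter gene Sh2d1a. Both values rest on the summed exon length, and with the principal transcript length Sh2d1a had 18.3 TPM. The kinase gene Lyn, typical of B and myeloid cells, was the gene that missed 1 TPM, with 2 counts.

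Genes downstream of SAP and FYN reached 1 TPM in every library in 8 of 10 cases. Prkcq, the kinase PKC theta that carries the signal to NF-kappa B, had 72.0 ± 37.2 TPM (SD, n = 3). Zbtb16, the transcription factor PLZF of natural killer T cells, had 1 count, and Il21, a cytokine of follicular helper cells, had 17. Both missed the 1 TPM mark.

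All 8 genes of proteins known to bind or act at the CD2 tail reached it. Was, the actin regulator WASP, had 94.6 ± 45.8 TPM, and Capzb, a subunit of the actin capping protein, had 80.7 ± 41.3 TPM (SD, n = 3 each). Cd2bp2, a protein that binds the proline-rich CD2 tail, had 25.4 ± 16.0 TPM. Of 6 transcription factor genes listed as regulators, 5 reached 1 TPM in all libraries, led by Tcf7 with 619 ± 332 TPM and Ets1 with 183 ± 122 TPM. Tbx21, the Th1 factor, was the one that did not.

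Next to 2 other groups of T cell surface genes, the members stood between them in level. The 16 costimulatory and inhibitory receptors had 11 genes at 1 TPM in all libraries and a median level of 14.9 TPM. The 7 T cell receptor and CD3 chains all reached 1 TPM and had a median of 275 TPM. Neither difference from the members' median of 31.9 TPM was tested.

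The members differed between libraries mainly through replicate 3. For this the counts were scaled by TMM, a normalization on the bulk of genes, and set against counting error with a Poisson chi-square test, Benjamini-Hochberg adjusted over 10662 genes. Of the 7 members tested, 5 were called at an adjusted p under 0.05, namely Cd2, Cd48, Ly9, Cd84 and Slamf6, and so were 67.1% of all tested genes. The members' share was thus near the background, and the test compares these libraries and not conditions. Without replicate 3, 1 of the 7 members (Cd2) was called and 32.5% of all genes, and under a negative binomial error model with edgeR's common dispersion 0 members and 0.863% of genes were. At an unadjusted p under 0.05 that model also called 0 members, and 1695 genes. Its dispersion was estimated from these same libraries and so already holds their spread. Few calls under that model therefore cannot show that the libraries were alike.

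Cd48 had the widest range among the 7. Its scaled counts were 56.7, 61.4 and 29.6 CPM (counts scaled to a common depth) in replicates 1, 2 and 3 (adjusted p = 4.15e-06). Replicates 1 and 2 were close and replicate 3 differed from their mean by -0.98 on the log2 scale. Ly9 had 98.5, 112 and 65.4 CPM (adjusted p = 7.64e-07), a log2 difference of -0.68. Cd2 had 221, 247 and 182 CPM (adjusted p = 3.71e-06), a log2 difference of -0.36. Between replicates 1 and 2 alone the log2 range was 0.16 for Cd2 (adjusted p = 0.0338) and 0.11 for Cd48 (adjusted p = 0.522), so the wider range of Cd48 rested on replicate 3.

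Cd84 and Slamf6 again moved alike, with log2 differences of -0.54 (adjusted p = 3.87e-05) and -0.57 (adjusted p = 1.37e-05) between replicate 3 and the others. Slamf1 at -0.37 (adjusted p = 0.578) and Sh2d1a at -0.15 (adjusted p = 0.701) were not called, and their 144 and 150 counts over the 3 libraries leave more counting error. With counts scaled to the library totals alone Slamf1 was called (adjusted p = 0.0149), so that 6 of 7 members and 82.5% of all genes were. Slamf7 was under the count filter.

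All 7 tested members were lowest in replicate 3, against 48.7% of all tested genes and 70.6% of those with no gene of the other strand within 5 kb. Most other T cell genes listed moved the same way. Lowest in replicate 3 were 8 of 8 CD4 T cell markers and 6 of the 7 T cell receptor and CD3 chains. So were 8 of 10 tested costimulatory and inhibitory receptors. The median log2 differences of these lists, in that order, were -0.60, -0.73 and -0.49, beside -0.54 for the members. The lists are not separate, since most of the CD4 T cell markers are also in 1 of the other lists. Of the naive T cell markers 4 of 6 were lowest in replicate 3, with a median of -0.52. The 2 tested myeloid markers, Csf1r and Cd68, were both called higher in replicate 3, with a median of 1.57, and their part in the members' difference was not tested. The scaling set these directions in part, because the median log2 difference over all tested genes was -0.12 with TMM and 0.26 with TMM over genes having no other-strand gene within 5 kb. The count of members lowest in replicate 3 was 6 with DESeq2 size factors, 6 with TMM over genes without shared exon bases and 4 on the second TMM scaling named. On that scaling Cd2, Slamf1 and Sh2d1a changed sign, to 0.03, 0.007 and 0.22. With TMM over genes without shared exon bases, of the 7, Sh2d1a alone changed sign, to 0.10. Relative to the median of all tested genes the TMM differences were -0.87 for Cd48, -0.56 for Ly9, -0.45 for Slamf6, -0.42 for Cd84, -0.25 for Slamf1, -0.24 for Cd2 and -0.03 for Sh2d1a.

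Set beside genes of their own strand class, Cd2, Slamf1 and Cd84 were close to the median. Genes with no other-strand gene within 5 kb had a median log2 difference of -0.42, from which Cd2 differed by 0.07, Slamf1 by 0.06 and Cd84 by -0.11. Cd48 differed by -0.71 from the median of its class, the genes with an other-strand gene within 5 kb, and 10.8% of the 3644 genes in that class were lower. Ly9 differed by -0.40 and Slamf6 by -0.29 from the same median, with 24.4% and 30.7% of genes lower. Sh2d1a differed by -0.90 from the median of genes that share exon bases, of which 27.2% were lower. The share of fragments in such genes was largest in replicate 3, and its part in these differences was not tested.

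**Figure D4:**
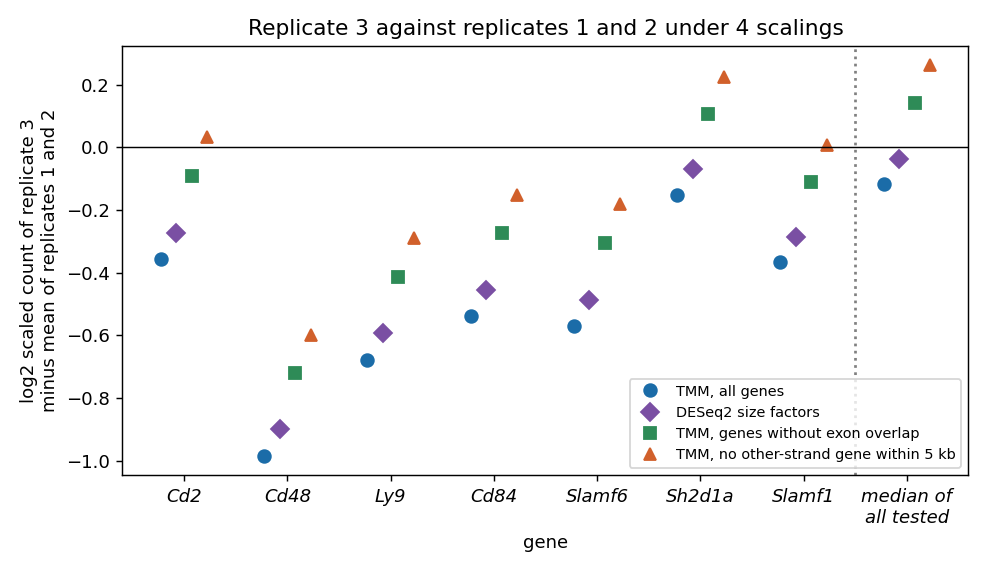
Log2 difference of replicate 3 from the mean of replicates 1 and 2 in scaled counts, for the 7 tested members and for the median of all tested genes, under 4 scalings marked by symbol and colour. Cd48 lies lowest under each, at -0.98, -0.90, -0.72 and -0.60, while Cd2, Slamf1 and Sh2d1a lie above 0 under TMM over genes with no other-strand gene within 5 kb and Sh2d1a also under TMM over genes without exon overlap.

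The make-up of the family within a library is independent of that scaling. Cd2 took 32.6%, 34.5% and 37.6% of the family's counts in replicates 1, 2 and 3, with exact 95% intervals of 30.8 to 34.4, 33.0 to 36.1 and 34.5 to 40.8. Cd48 took 8.37%, 8.57% and 6.10%, with intervals of 7.35 to 9.50, 7.69 to 9.51 and 4.65 to 7.83. For Cd2 the intervals of replicates 1 and 3 missed overlap narrowly (34.4 against 34.5), and for Cd48 all 3 intervals overlapped. The intervals cover counting error within a library only, so they do not test a difference in make-up between libraries. In TPM by summed exon length Cd2 made up 54.9 ± 3.82% of the family, Cd48 17.7 ± 3.13%, Ly9 12.0 ± 0.771%, Cd84 8.45 ± 0.457% and Slamf6 4.85 ± 0.274% (SD, n = 3 each). The remaining members made up a small part, with Sh2d1a at 1.09 ± 0.198%, Slamf1 at 0.894 ± 0.058% and Slamf7 at 0.087 ± 0.056%. These TPM shares depend on the length used. Slamf6 took 20.1%, 18.7% and 18.7% of the family's counts in replicates 1, 2 and 3. With the principal transcript lengths its mean of 83.2 TPM was above the 73.3 TPM of Cd48.

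Of the 46 pathway genes outside the members, 36 passed the count filter and 28 were called as differing between libraries, 24 of them lower in replicate 3 and 4 higher. Across all tested genes 67.1% were called, 34.5% lower and 32.6% higher in replicate 3. By the pattern of scaled counts over the 3 libraries, the genes nearest to the members summed were Paxip1, Ctdnep1 and Phf12, at Euclidean distances of 0.0022, 0.0059 and 0.0086 on the log2 scale. With only 3 libraries this likeness was common, since 18.0% of 7746 candidate genes lay within 0.2.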

How the data were processed

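The deposited tables held whole-number fragment counts, 1 row per gene. The authors had counted paired fragments on GENCODE M13 exons by featureCounts 1.4.6-p4 with strand setting 1, per the file headers. The other numeric column, the summed exon length of each gene in bases, was also made by the authors, per the file headers. Coordinates are those of mm10, which the labels name. The kit, the trimming and the version of the aligner are not given in the sources used here. A strand setting opposite to that of a stranded kit would count fragments of the other strand, so genes were classed by exon overlap or by an other-strand gene within 5 kb with bedtools 2.31.1. That would touch every gene's level, and overlapping and antisense genes are uncertain in any case.

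TPM were computed from the deposited counts and summed exon length. Symbols came from GENCODE M21 and named 50376 of 50600 identifiers. The TMM effective library sizes were 3897066, 5247968 and 1927348 by edgeR 4.0.16, and an alternative used the size factors of DESeq2 1.42.0. Variation between libraries was tested over 10662 genes kept by filterByExpr against Poisson counting error by chi-square (scipy 1.17.1, 2 degrees of freedom), called at a Benjamini-Hochberg adjusted p of 0.05. On simulated counts for this test, 49% of 100 genes changed by 1.5-fold, 100% of 100 genes changed by 3-fold and 0.0765% of 10462 unchanged genes were called. The simulated counts held only the Poisson error that the test assumes and no other spread between libraries. These shares are thus not error rates for the real libraries. Pairs of replicates 1 and 2, 1 and 3, and 2 and 3 differed at an unadjusted p under 0.05 in 44.2%, 54.1% and 69.2% of genes (chi-square test of both libraries' counts), so no library was taken as a copy of another. Ratios of counts per base used the summed exon length. Intervals are exact Clopper-Pearson 95% intervals, and the floor for 0 counts is 3 counts. Both cover counting error only, and PCR duplicates were not told apart, so the intervals may be too narrow. The chi-square p-values set differences between these libraries against counting error, and the sign-flip p-values concern the direction of a ratio.

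The members, gene lists, pairs and tests were chosen with earlier results of these data known. All members were named, with the 2 highest genes by mean TPM and all genes at 0 counts in each pathway list, every feature overlapping a member, and the 3 genes nearest in pattern. A gene that this rule names is not reported here. Fyn, Lyn, Zbtb16, Il21, Tbx21, Cd2bp2 and Slamf9 fell outside that rule and were named after their values were seen. The same holds for the T cell markers Ifng, Cxcr3, Ccl5, Gzmb, Il18r1, Stat4, Il12rb2, Cd8a, Cd8b1 and Trdc. It also holds for the markers Klrk1, Cd74, Xbp1, Ighm, Cd79a, Csf1r and Cd68 and for those named at 0 counts. Alternatives were other scalings, filters, pseudocounts, lengths and error models, and leaving out each replicate.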

Additional observations from a re-analysis of the deposited data

How the results depend on the processing

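The count of members at 1 TPM stayed at 7 under all alternatives run except a minimum of 5 TPM, which left 5. The members' median log2(TPM + 0.1) was 4.80, and 6.74 with TPM over genes without exon overlap, 3.86 with CPM per kilobase scaled by TMM or by DESeq2, 5.85 with the principal transcript length, and 4.48 to 5.28 with each replicate left out. Among members called as differing between libraries, 5 in the reported test, 2 (Cd48 and Slamf6) remained with TMM over genes having no other-strand gene within 5 kb, where 53.3% of genes were called. That scaling and the principal length were chosen after the data were seen. There the adjusted p was 0.942 for Cd2, 0.156 for Ly9 and 0.0541 for Cd84. With TMM over genes without exon overlap Cd2 lost its call (adjusted p = 0.448). With a negative binomial model at edgeR's common dispersion of 0.141, 0 members and 92 genes were called, against 7152 genes in the reported test. That dispersion was estimated from the same libraries, so few calls were set in advance. Leaving out a replicate gave 1 to 5 members and 3817 to 6819 genes called, and without replicate 3 the 1 member called was Cd2. Slamf6 over Ly9 reversed to a log2 ratio of 0.40 both in counts with no length correction and with the principal length, and Slamf6 over Cd84 reversed to 0.39 with the principal length. All 12 pairs kept 1 direction across libraries, except 11 without length correction. No paired analysis was possible because the series has 1 group. Depth limits Slamf7, with 10 counts in all, and the genes at 0 counts.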
